A study of Homo sapiens with 4 samples.

Results

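The integrins and laminins are the cell-surface receptors and the basement membrane proteins through which epithelial cells hold on to their matrix. Their 38 genes, 18 integrin α subunits, 8 integrin β subunits and 12 laminin chains, were picked by gene symbol out of the 50868 genes counted in A549 cells, a human lung adenocarcinoma line. The labels name 2 groups, control A549 cells (replicates 1 and 2) and USP12-overexpressed A549 cells (replicates 1 and 2). The study's methods describe a lentiviral pLVX vector carrying tagged human USP12, a deubiquitinase. Its figure legends name the A549 control cells as a vector control (EV). Whether a population was a clone, and whether the 2 libraries of a group came from separate cultures, is not given in the sources used here, so p-values measure the spread between these libraries, which may be technical. The test was fitted on all genes together.

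An integrin is a pair of 1 α and 1 β subunit that spans the membrane, binds matrix or another cell outside and is tied to actin through talin and kindlin inside. The α subunit largely sets the ligand: α3, α6 and α7 pair with β1, and α6 also with β4, and bind laminins, α1, α2, α10 and α11 pair with β1 and bind collagens, α5, αv, α8 and αIIb recognise RGD-type ligands such as fibronectin and vitronectin, and αL, αM, αX and αD pair with β2 on leukocytes. Laminins are trimers of an α, a β and a γ chain. The trimer that holds α3 and β3 anchors epithelium through hemidesmosomes, and trimers built on α5 with β1 or β2 and γ1 are the common laminins of adult epithelial basement membranes. In lung epithelium, αvβ6 and αvβ8 are also known as activators of latent TGF-β.

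USP12 itself had 15.2 and 34.4 CPM (each count scaled to library size after edgeR's TMM normalisation and expressed per 1e6 counts) in control replicates 1 and 2, and 1745 and 2235 CPM in USP12 replicates 1 and 2. Its log2 fold change was 6.32 (standard error, SE, 0.57, with an adjusted p of 0.0975 by edgeR quasi-likelihood), so the libraries follow their labels. Totals lay between 14280081 and 16305356 counts per library, and 3 counts corresponded to between 0.166 and 0.227 CPM, a floor that covers counting error only. All 7 epithelial markers examined were detected, summing to 12901 and 7476 CPM in the control libraries and to 7319 and 6796 CPM in the USP12 libraries. The control libraries stood apart from each other: the SD of their log2 difference over the 15222 genes tested was 1.32, against 0.62 between the USP12 libraries, and a different date-like prefix stands before the heading of control replicate 1. That prefix covers 1 library, so a batch and that culture cannot be told apart, and fold changes against each control library alone are therefore given beside the main results.

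Of the 38 genes, 32 passed the filter on low counts (edgeR's filterByExpr) and were tested. A pair of call rules was read from the same fit across all genes, an adjusted p under 0.05 and the criterion that the study used for its gene lists, an unadjusted p of 0.05 or less with a log2 fold change of 1 or more in size. By the first rule, 0 of the 32 genes were lower and 0 higher, as were 0% and 0% of all genes tested, although 5 of the 32 and 1155 of the 15222 genes (7.59%) had an unadjusted p under 0.05 in edgeR's quasi-likelihood test. The DESeq2 Wald test called 2 of the 32 genes lower at an adjusted p under 0.05, beside 273 lower over all genes. The edgeR exact test called 1 of the 32 lower, beside 262 over all genes. By the second rule, LAMA4 and LAMB3 were lower and LAMA3, ITGB6 and ITGA10 were higher in USP12 cells, 2 genes (6.25%) against a background of 4.41% of all genes tested, and 3 genes (9.38%) against a background of 2.92%. In point estimates, 22 of the 32 genes were lower (53.6% of all genes tested were), 6 had a log2 fold change of -1 or below whatever the p (9.99% of all genes) and 8 had 1 or above (7.13% of all genes), and the median was -0.41 beside -0.06 over all genes tested. Nothing particular to the adhesion genes is read from these counts. Because whole cultures were sequenced, fewer cells that express a gene and less RNA per cell cannot be told apart. Against control replicate 1 alone, 11 of the genes were called lower and 6 higher by the second rule, beside 2134 lower and 2495 higher over all genes. Against control replicate 2 alone 2 were called lower and 6 higher, beside 1275 and 1263 over all genes.

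For the 5 genes called by the second rule, the 250 bases before the start of transcription are shown, because these are the members the results turn on. They come from RefSeq on GRCh38.p14, in which 26 of the 38 genes had an entry. LAMB3 is given at 2 of its 3 starts, the further one, 1051 bases away, because it is the only one whose window holds an AP-1 match. Capitals mark matches, on either strand, to AP-1 (TGANTCA, the same letters on both strands), TEAD (GGAATG), a GC box (GGGCGG) or a TATA box (TATAAA). No 2 matches overlap.
ITGA10, chr1:145910051-145910300, minus strand: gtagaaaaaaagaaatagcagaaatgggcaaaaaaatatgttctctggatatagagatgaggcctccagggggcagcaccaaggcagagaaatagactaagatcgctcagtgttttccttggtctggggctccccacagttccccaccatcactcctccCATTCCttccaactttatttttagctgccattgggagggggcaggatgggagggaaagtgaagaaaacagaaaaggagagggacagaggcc
ITGB6, chr2:160200273-160200522, minus strand: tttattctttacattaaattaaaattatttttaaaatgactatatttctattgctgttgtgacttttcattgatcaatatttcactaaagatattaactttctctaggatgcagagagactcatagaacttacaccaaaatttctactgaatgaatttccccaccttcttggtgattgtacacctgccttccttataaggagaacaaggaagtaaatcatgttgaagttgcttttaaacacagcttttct
LAMA3, chr18:23872770-23873019, plus strand: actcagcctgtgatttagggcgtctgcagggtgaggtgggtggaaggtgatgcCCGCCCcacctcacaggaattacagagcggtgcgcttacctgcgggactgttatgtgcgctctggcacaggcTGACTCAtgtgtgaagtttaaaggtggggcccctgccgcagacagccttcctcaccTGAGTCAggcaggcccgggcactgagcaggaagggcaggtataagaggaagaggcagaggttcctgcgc
LAMA4, chr6:112254568-112254817, minus strand: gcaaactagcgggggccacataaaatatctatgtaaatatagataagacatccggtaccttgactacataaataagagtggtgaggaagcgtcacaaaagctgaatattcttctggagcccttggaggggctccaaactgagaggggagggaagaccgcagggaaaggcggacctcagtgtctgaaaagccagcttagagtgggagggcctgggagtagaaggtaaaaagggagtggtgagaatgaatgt
LAMB3, chr1:209652426-209652675, minus strand (start of the MANE transcript): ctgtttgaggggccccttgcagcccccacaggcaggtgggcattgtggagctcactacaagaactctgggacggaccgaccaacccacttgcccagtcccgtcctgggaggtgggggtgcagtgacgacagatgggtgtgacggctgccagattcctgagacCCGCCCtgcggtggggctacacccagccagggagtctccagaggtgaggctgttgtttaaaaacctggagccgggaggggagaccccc
LAMB3, chr1:209651375-209651624, minus strand (a further start): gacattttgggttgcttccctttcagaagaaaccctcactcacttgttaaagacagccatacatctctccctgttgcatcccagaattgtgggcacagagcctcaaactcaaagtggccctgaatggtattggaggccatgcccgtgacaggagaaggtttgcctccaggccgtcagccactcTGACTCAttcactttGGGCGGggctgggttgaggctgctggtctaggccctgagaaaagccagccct

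The LAMA3 window, at a start 183567 bases from that of the MANE transcript and inside the gene, held 2 AP-1 matches, at -125 to -119 and at -69 to -63 from the start. The further LAMB3 start held 1, at -67 to -61, with a GC box at -52 to -47. Over the 33 windows of the 26 genes with an entry, these were the 2 with an AP-1 match (6.06%), near the 6.57% of all 35116 windows of the same length. TEAD letters were in 12.1% of the 33 windows and 11.9% of all, GC boxes in 51.5% and 42.6%, and TATA boxes in 6.06% and 10.7%. The ITGB6 and LAMA4 windows held none of the 4, and the ITGA10 window held 1 TEAD match, at -91 to -86. Matching letters describe the window and do not show that a factor binds there. Counts per gene do not tell which start was in use. Whether the AP-1 letters of LAMA3 and LAMB3 bear on their fold changes was not tested.

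Among the laminin α chains, LAMA4 (ENSG00000112769, chromosome 6 of GRCh38, 112107931 to 112254939), a chain known from vessel walls and mesenchymal tissue, had the log2 fold change of largest size among the 32 genes tested. It had 43 and 71 counts in control and 2 and 5 counts in USP12 cells, or 3.25 and 3.93 CPM against 0.144 and 0.346 CPM. Both control libraries were alike and both USP12 libraries were close to or below the floor of 3 counts. In USP12 cells it differed by a log2 fold change of -3.82 (SE 0.82, with a raw p of 0.00329 and an adjusted p of 0.274 by edgeR quasi-likelihood), -3.65 against control replicate 1 alone and -3.95 against control replicate 2 alone. On summed counts, 114 in control and 7 in USP12 cells, LAMA4 was 14.8-fold lower with USP12 (95% exact interval 6.94 to 37.5, counting error only). Its adjusted p was 0.028 in the DESeq2 Wald test and 0.00346 in the edgeR exact test. Without USP12 replicate 1 the log2 fold change was -3.33 and the call was lost. With 1 USP12 library the spread comes from the control libraries alone, and fewer genes were called over all genes too. A call lost in such a fit, here and below, is therefore not read as a result about that gene.

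Markers of endothelium, a cell type that makes LAMA4, were also higher in the control libraries. Of 6 such markers, 2 were above 3 counts in any library: CDH5 had 136 and 96 counts in control and 2 and 5 in USP12 cells, and PECAM1 had 68 and 56 counts against 4 and 14. The other 4 were at or near 0, with 0, 3, 0 and 0 counts for VWF, 0, 0, 1 and 0 for KDR, 0, 0, 0 and 2 for TEK and 0, 0, 0 and 1 for CLDN5 across control 1, control 2, USP12 1 and USP12 2. The list summed to between 8.59 and 15.4 CPM in control and between 0.504 and 1.52 CPM in USP12 cells, and its part in the LAMA4 result was not tested.

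LAMA3 (ENSG00000053747, chromosome 18, 23689453 to 23956222), the α chain of the hemidesmosome laminin, was higher. Its level was 15.9 and 26.2 CPM in control and 52.2 and 65.0 CPM in USP12 cells, without overlap. This amounted to a log2 fold change of 1.48 (SE 0.45, with a raw p of 0.0155 and an adjusted p of 0.428 by edgeR quasi-likelihood). It was 1.91 against control replicate 1 alone and 1.16 against control replicate 2 alone. With USP12 replicate 1 or 2 left out, LAMA3 kept its direction but not the call, as the unadjusted p was 0.113 or 0.214.

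The β chain of the same trimer, LAMB3 (ENSG00000196878, chromosome 1, 209614870 to 209652425), went the other way. It had 246 and 61.0 CPM in control and 31.8 and 36.6 CPM in USP12 cells, so the groups did not overlap, while the control libraries were themselves far apart. Its log2 fold change was -2.17 (SE 0.68, with a raw p of 0.0185 and an adjusted p of 0.454 by edgeR quasi-likelihood). It was -2.82 against control replicate 1 alone and -0.83 against control replicate 2 alone, a size under the threshold of 1, so the call rests on control replicate 1. The DESeq2 Wald test gave an adjusted p of 0.0191 and the edgeR exact test 0.0786. Without USP12 replicate 1 the log2 fold change was -2.05 and the call was also lost.

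LAMA3 and LAMB3, chains of one trimer, were thus called in opposite directions. Ratios between chains within a library do not depend on library scaling. Per kilobase of MANE transcript (the reference transcript of each gene), the ratio of LAMA3 to LAMB3 levels was 0.0243 and 0.162 in control and 0.618 and 0.670 in USP12 cells. With the length of all annotated exons instead, it was 0.0207 and 0.138 against 0.526 and 0.570. A LAMA3 transcript begun at the start inside the gene would be shorter than either length. For such transcripts the absolute ratio, and the LAMA3 shares given below, would be too low. Which LAMA3 transcripts were present was not tested. Both USP12 libraries were above both control libraries in this ratio. That follows from the CPM of the 2 genes, with LAMA3 above and LAMB3 below both control libraries, so it adds no support. The control libraries differed from each other in this ratio more than the USP12 libraries did. With 2 libraries per group, an exact two-sided permutation test of such a ratio cannot give a p below 0.333.

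LAMA5, LAMB1 and LAMC1, which had the highest CPM of the laminin chains in both USP12 libraries, were not called. LAMA5 (chromosome 20, 62307955 to 62367312), the main α chain of A549 cells, had 582 and 538 CPM in control and 289 and 410 CPM in USP12 cells, with no overlap and a log2 fold change of -0.68 (SE 0.34, with an adjusted p of 0.786 by edgeR quasi-likelihood). LAMB1 had 344 and 432 CPM in control and 338 and 379 CPM in USP12 cells. LAMC1, the γ chain of most laminins, had 359 and 380 CPM in control and 335 and 382 CPM in USP12 cells, one of the narrowest ranges of the whole group. The log2 fold changes of LAMB1 and LAMC1 were -0.11 (SE 0.33) and -0.04 (SE 0.32). LAMB2, the β chain that can take the place of LAMB1, had 182 and 110 CPM against 113 and 129 CPM.

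Expressed as shares of the summed CPM per kilobase of a chain class, LAMA5 made up 96.3% and 93.8% of the α chain transcripts in control replicates 1 and 2 and 83.2% and 85.1% in USP12 replicates 1 and 2. LAMA3 made up 2.82% and 4.89%, then 16.1% and 14.5%. The group ranges were apart for both chains, as they already were in CPM. The same held with the length of all annotated exons (2.60% and 4.53%, then 15.1% and 13.5% for LAMA3). For the β chains the picture differed between the control libraries: LAMB3 was 39.8% and 13.7% of them in control and 9.03% and 9.23% in USP12 cells, and LAMB1 was 39.5% and 68.8%, then 68.3% and 67.9%. Control replicate 2 resembled the USP12 libraries in its LAMB1 share, and control replicate 1 did not.

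**Figure D1:**
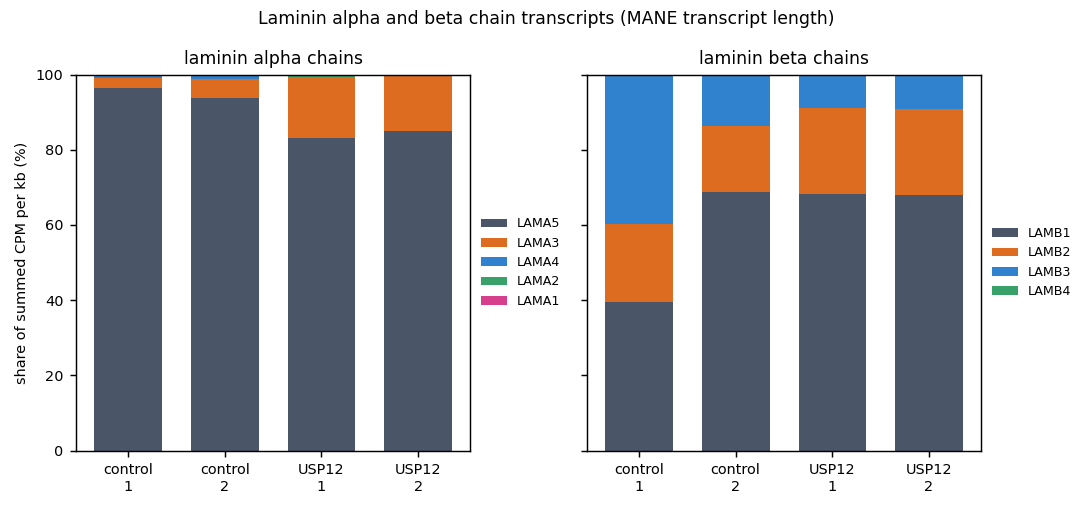
Stacked bars give, for each of the 4 libraries, the share in percent of each laminin chain in the summed CPM per kilobase (MANE transcript length) of the α chains (left) and the β chains (right). The LAMA3 share is 16.1% and 14.5% in the USP12 libraries against 2.82% and 4.89% in the control libraries, and the LAMB3 share is largest in control replicate 1, at 39.8%.

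LAMA2 (chromosome 6, 128883138 to 129516566), the α chain of muscle and nerve laminin, had 2 and 18 counts in control and 27 and 16 counts in USP12 cells (0.151 and 0.997 CPM against 1.94 and 1.11 CPM). Its log2 fold change of 1.36 (SE 1.03, with an adjusted p of 0.898 by edgeR quasi-likelihood) was smaller than the gap between the control libraries, and on summed counts the USP12 cells had 2.37 times the control level (95% exact interval 1.37 to 4.26, counting error only). LAMC3 had 8.93 and 1.50 CPM in control and 2.23 and 2.15 CPM in USP12 cells. LAMA1, with 3, 0, 0 and 2 counts over control 1, control 2, USP12 1 and USP12 2, and LAMB4, with 0, 4, 1 and 0 counts, did not pass the filter. Of the 12 laminin genes 10 were thus tested, with a median log2 fold change of -0.48, beside -0.06 over all genes tested. Of these 10 genes, 2 were called lower, beside 4.41% of all genes tested, and 1 higher, beside 2.92%.

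Among the integrin β subunits, ITGB6 (ENSG00000115221, chromosome 2, 160099667 to 160200313), the epithelial partner of αv, was called higher. It had 1 and 12 counts in control and 40 and 46 counts in USP12 cells, or 0.0757 and 0.665 CPM against 2.88 and 3.19 CPM. Its level was low even in USP12 cells, but the groups did not overlap. On the log2 scale ITGB6 differed by 2.95 (SE 1.01, with a raw p of 0.0257 and an adjusted p of 0.513 by edgeR quasi-likelihood), 5.19 against the 1 count of control replicate 1 and 2.18 against control replicate 2 alone. On summed counts the USP12 cells had 7.30 times the control level (95% exact interval 4.05 to 14.3, counting error only). Without USP12 replicate 1 or 2 the log2 fold change was 3.05 or 2.88, and the call was lost. A gene on the same strand that is not in the counted tables, ENSG00000285155, shares 16.7% of the exonic bases of ITGB6, so some fragments cannot be assigned with certainty.

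ITGB8 (chromosome 7, 20330702 to 20415754), another β subunit that pairs with αv, had 78 and 23 counts in control and 13 and 13 counts in USP12 cells (5.90 and 1.27 CPM against 0.936 and 0.900 CPM). The groups did not overlap, but the log2 fold change of -1.95 (SE 0.91, with a raw p of 0.0749 and an adjusted p of 0.746 by edgeR quasi-likelihood) was not called, and it was -0.47 against control replicate 2 alone. Per kilobase of MANE transcript, the ratio of ITGB6 to ITGB8 levels was 0.0248 and 1.01 in control and 5.95 and 6.84 in USP12 cells. With the length of all annotated exons it was 0.0336 and 1.37 against 8.06 and 9.27. ITGB6 was thus below ITGB8 in control replicate 1, on 1 count of ITGB6, and above it in both USP12 libraries by either length. In control replicate 2 the ratio was 1.01 or 1.37, depending on the length. The groups had to be apart in this ratio, since in CPM USP12 cells were above both control libraries for ITGB6 and below both for ITGB8. Their shared partner ITGAV (chromosome 2, 186590010 to 186680901) had 101 and 135 CPM in control and 82.4 and 107 CPM in USP12 cells, with a log2 fold change of -0.32 (SE 0.37).

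ITGB3 (chromosome 17, 47253827 to 47313743), another αv partner and the β subunit of the platelet fibrinogen receptor, had 51 and 2 counts in control and 59 and 111 counts in USP12 cells. Control replicate 2 was the library that stood apart. The log2 fold change of 1.61 (SE 1.29, with an adjusted p of 0.911 by edgeR quasi-likelihood) was 0.66 against control replicate 1 alone and 5.65 against the 2 counts of control replicate 2. A gene on the same strand, ENSG00000259753, shares 33.2% of the exonic bases of ITGB3, and it held 0, 0, 2 and 0 counts. The platelet α partner ITGA2B had 8.10 and 0.942 CPM in control and 2.88 and 1.45 CPM in USP12 cells. A list of 6 megakaryocyte and platelet markers summed to between 3.99 and 17.5 CPM in control and between 3.60 and 3.67 CPM in USP12 cells, highest like ITGA2B in control replicate 1, with PPBP, GP9 and TUBB1 at 0 and 2 of the 6 above 3 counts. Its part in the ITGA2B values was not tested.

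ITGB1 (chromosome 10, 32887273 to 33005792), the partner of most α subunits, had the highest level of all integrins per kilobase of MANE transcript, at 220 and 224 CPM per kilobase in control and 136 and 223 in USP12 cells. Per kilobase of all annotated exons ITGB5 exceeded it in both control libraries and in USP12 replicate 1, so that order depends on the transcript length used. In CPM it had 823 and 836 in control and 506 and 834 in USP12 cells, a log2 fold change of -0.31 (SE 0.36, with an adjusted p of 0.944 by edgeR quasi-likelihood). USP12 replicate 1 alone was lower, and without it the log2 fold change was 0.02. ITGB5, an αv partner that binds vitronectin, had 720 and 377 CPM in control and 378 and 364 CPM in USP12 cells. ITGB4, the hemidesmosome subunit that joins α6 to laminin, had 647 and 225 CPM in control and 307 and 311 CPM in USP12 cells. Both were higher in control replicate 1 than in any other library. Their log2 fold changes were -0.56 (SE 0.41) and -0.50 (SE 0.53), and that of ITGB4 became 0.46 against control replicate 2 alone. Of the 8 β subunit genes 7 were tested, with a median log2 fold change of -0.50. Among them 0 were called lower, beside 4.41% of all genes tested, and 1 higher (14.3%, beside 2.92%). ITGB7, a lymphocyte subunit, had 27, 0, 5 and 1 counts over control 1, control 2, USP12 1 and USP12 2 and did not pass the filter. ZNF740 on the opposite strand covers 42.3% of its exonic bases.

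**Figure D2:**
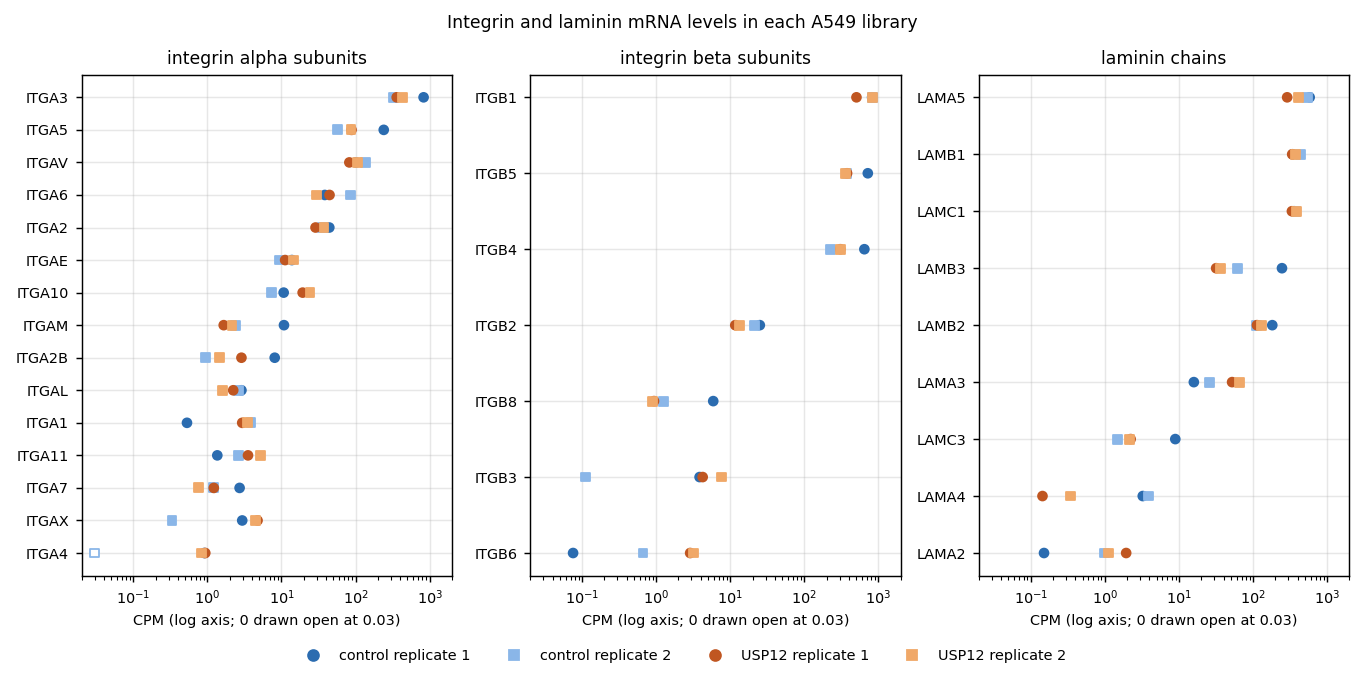
Points give the CPM (log axis) of 31 of the 32 tested genes in the 4 libraries, circles for replicate 1 and squares for replicate 2, in blue for control and orange for USP12, ordered within each class by the mean of the control libraries. LAMA4, with 3.25 and 3.93 CPM against 0.144 and 0.346 CPM, shows the groups far apart and the control libraries together, whereas control replicate 1 stands apart in genes such as ITGAM and ITGB8. ITGA4 in control replicate 2 was 0 and is drawn as an open symbol at 0.03.

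Of the collagen receptors, ITGA10 (ENSG00000143127, chromosome 1, 145891208 to 145910111), known from cartilage, was called higher. It had 10.7 and 7.26 CPM in control and 19.3 and 24.2 CPM in USP12 cells, without overlap. Its log2 fold change was 1.28 (SE 0.47, with a raw p of 0.0337 and an adjusted p of 0.57 by edgeR quasi-likelihood). It was 1.05 against control replicate 1 alone and 1.58 against control replicate 2 alone. Without USP12 replicate 1 or 2 it was 1.45 or 1.11, and the call was lost. ITGA11, a fibroblast collagen receptor, had 1.36 and 2.60 CPM in control and 3.53 and 5.26 CPM in USP12 cells, a log2 fold change of 1.14 (SE 0.65, with an adjusted p of 0.834 by edgeR quasi-likelihood) with no overlap of the groups. ITGA2, the main collagen receptor of epithelium, had 44.2 and 36.0 CPM against 28.8 and 37.4 CPM, and ITGA1 had 0.530 and 3.88 CPM against 2.95 and 3.46 CPM. The ratio of ITGA10 to ITGA2 levels per kilobase was 0.369 and 0.308 in control and 1.02 and 0.988 in USP12 cells, and with the length of all annotated exons 0.305 and 0.255 against 0.848 and 0.818. The ITGA10 level was thus well below that of the epithelial collagen receptor in control cells and close to it in USP12 cells.

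A list of 8 fibroblast markers, cells in which ITGA11 and LAMA2 are at home, summed to 34.6 and 4.21 CPM in the control libraries and to 22.7 and 17.5 CPM in the USP12 libraries. DCN was at 0, COL1A2 had 0, 2, 0 and 0 counts, and 6 of the 8 were above 3 counts in some library. Of these, COL1A1 had 13.0 and 2.60 CPM in control against 18.9 and 14.6 CPM in USP12 cells, PDGFRB had 0 and 0 counts against 6 and 11 counts, and THY1 had 16.6 and 0.997 CPM against 1.58 and 0.416 CPM. The rest of the 6 also differed in which library was highest. The part of these markers in the ITGA11 and LAMA2 values was not tested.

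ITGA3 and ITGA6, the laminin-binding α subunits of epithelium, differed less between the groups than between the control libraries. ITGA3 (chromosome 17, 50055968 to 50090481), which with β1 binds the laminins of epithelium, had 828 and 325 CPM in control and 359 and 431 CPM in USP12 cells. It was the leading α subunit, with 63.9% and 53.4% of the summed α levels per kilobase in control and 57.6% and 60.6% in USP12 cells. ITGA6, the α partner of ITGB4, had 38.4 and 85.3 CPM in control and 44.5 and 30.0 CPM in USP12 cells. The log2 fold changes of ITGA3 and ITGA6 were -0.54 (SE 0.49) and -0.73 (SE 0.51), and they moved in opposite ways with the control library: that of ITGA3 was -1.04 against control replicate 1 and 0.28 against control replicate 2, and that of ITGA6 was -0.02 and -1.19. ITGA7, the muscle laminin receptor, had between 0.762 and 2.72 CPM.

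The fibronectin receptor subunit ITGA5 (chromosome 12, 54395261 to 54419266) had 240 and 57.0 CPM in control and 88.2 and 86.8 CPM in USP12 cells. Both USP12 libraries were alike and lay between the control libraries. For ITGA5 the log2 fold change was -0.76 (SE 0.66, with an adjusted p of 0.923 by edgeR quasi-likelihood), and its sign depended on the control library, with -1.43 against replicate 1 and 0.62 against replicate 2. ITGA4, the subunit that binds VCAM1, had 12, 0, 13 and 12 counts over control 1, control 2, USP12 1 and USP12 2. CERKL, on the opposite strand, covers 26.4% of the exonic bases of ITGA4 and had 0, 26, 23 and 27 counts. ITGA8 had no count in any library and ITGA9 had 1 count in all, and neither was tested.

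The leukocyte integrins were present at low levels. ITGAM (chromosome 16, 31259967 to 31332892), the α subunit of complement receptor 3, had 143 and 43 counts in control and 23 and 31 counts in USP12 cells (10.8 and 2.38 CPM against 1.66 and 2.15 CPM). Its log2 fold change was -1.79 (SE 0.84, with a raw p of 0.0761 and an adjusted p of 0.748 by edgeR quasi-likelihood), and -0.32 against control replicate 2 alone. ITGAX had 39 and 6 counts in control and 66 and 64 counts in USP12 cells. Its log2 fold change was 1.50 (SE 1.00, with an adjusted p of 0.872 by edgeR quasi-likelihood), 0.66 against control replicate 1 and 3.76 against control replicate 2. Their common partner ITGB2 had 25.1 and 21.2 CPM in control and 11.7 and 13.5 CPM in USP12 cells, a log2 fold change of -0.88 (SE 0.43, with a raw p of 0.0874 and an adjusted p of 0.774 by edgeR quasi-likelihood) with no overlap and little difference between replicates. ITGAL, which also pairs with ITGB2, had 2.88 and 2.66 CPM against 2.23 and 1.59 CPM, and ITGAE had between 9.36 and 14.5 CPM. ITGAD had no count in any library.

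The pan-leukocyte marker PTPRC had 0, 1, 1 and 0 counts, and CD3E had none, while other listed leukocyte markers were above the floor. The 8 leukocyte markers summed to 37.9 and 8.59 CPM in control and 16.7 and 15.4 CPM in USP12 cells, with 5 of the 8 above 3 counts and CD14 making up most of it (32.1 CPM in control replicate 1). ITGAM, like that sum, was highest in control replicate 1. The leukocyte markers did not all move the same way, and their part in the leukocyte integrin values was not tested. In all, 15 of the 18 integrin α genes were tested, with a median log2 fold change of -0.32. Among them 0 were called lower, beside 4.41% of all genes tested, and 1 higher (6.67%, beside 2.92%).

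**Figure D3:**
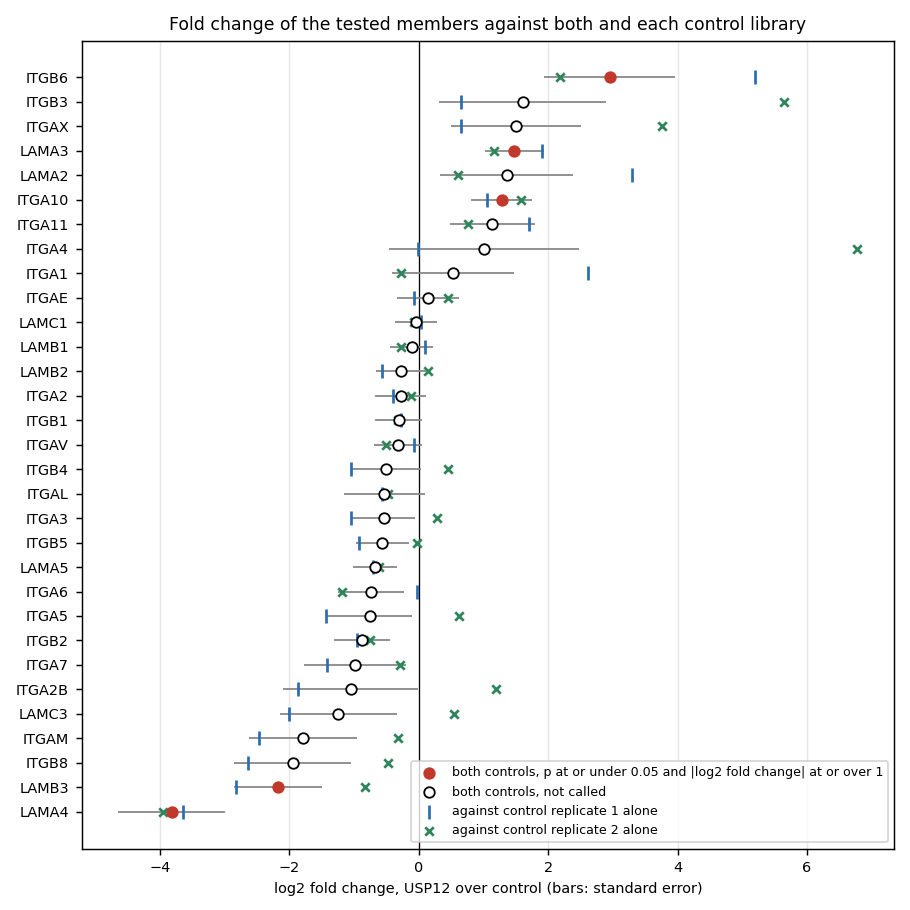
Circles give the log2 fold change of USP12 over control cells for 31 of the 32 tested genes with its approximate standard error, red where p was 0.05 or less and the fold change 1 or more in size on the log2 scale; blue bars and green crosses give the value against control replicate 1 or 2 alone. For LAMA4 the marks lie between -3.95 and -3.65, while those of LAMB3 run from -2.82 to -0.83, and the cross of ITGA4 at 6.78 is against a library with 0 counts, so its size depends on the prior count.

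Both USP12 libraries were above both control libraries in 7 of the 32 genes (ITGAX, ITGA10, ITGA11, ITGB3, ITGB6, LAMA2 and LAMA3) and below both in 7 (ITGAL, ITGAM, ITGB2, ITGB8, LAMA4, LAMA5 and LAMB3). These are 21.9% each, beside 19.5% of all genes tested for higher and 17.0% for lower, which is near the background. With DESeq2's size factors 10 genes were below, as ITGA7, ITGB1 and ITGB5 joined them, beside 2678 of the 15222 genes tested. In 8 genes, ITGA1, ITGA3, ITGA5, ITGA2B, ITGB4, LAMB2 and LAMC3 among them, both USP12 libraries lay between the control libraries. No share over all genes is given beside that count, and nothing particular to these genes is read from it.

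The log2 difference of the control libraries had an SD of 1.57 over the 32 genes, beside the 1.32 over all genes, and that of the USP12 libraries 0.42. Between the control libraries, 17 of the 32 genes (53.1%) differed by a log2 of 1 or more on log2 CPM with a prior count of 2, as did 43.5% of all genes tested. Control replicate 1 was the higher one in 13 of the 17, LAMB3, LAMC3, ITGA3, ITGA5 and ITGB4 among them, and the lower one in ITGA1, ITGA6, ITGB6 and LAMA2. Between the USP12 libraries 0 of the 32 genes differed so much (0%), as did 7.90% of all genes tested. In 12 of the 32 genes the sign of the fold change against control replicate 1 was opposite to that against control replicate 2. The share over all genes is not given for this count, so nothing particular to these genes is read from it.

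**Figure D4:**
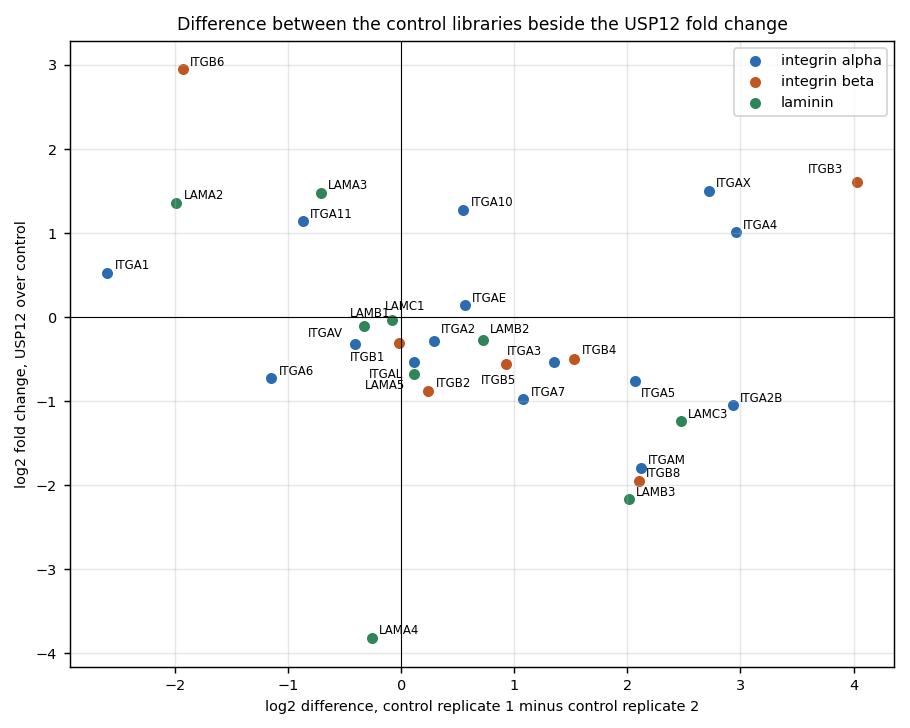
Each point is 1 gene (31 of the 32 tested), with the log2 difference of control replicate 1 minus control replicate 2 on the horizontal axis and the log2 fold change of USP12 over control on the vertical axis; both axes use the control libraries, so no relation is read from their joint spread. LAMA4 lies near 0 on the horizontal axis at a fold change of -3.82, whereas LAMB3, ITGB8 and ITGAM lie where control replicate 1 was the higher library.

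The proteins that join integrins to actin and signalling were compared in the same fit. Of 38 listed activation and adaptor genes 37 were tested, with 1 called lower, 0 higher and a median log2 fold change of 0.10. The one called was PTK2B, a focal adhesion kinase relative, with 86.4 and 57.5 CPM in control and 21.9 and 33.2 CPM in USP12 cells (log2 fold change -1.39, SE 0.44, with a raw p of 0.0194 and an adjusted p of 0.462 by edgeR quasi-likelihood). The backgrounds of 4.41% lower and 2.92% higher apply here too. With either USP12 library left out, PTK2B was no longer called.

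Of the partners and receptors of laminins other than integrins, 20 of 23 listed names were tested, with 3 called lower (15.0%, beside 4.41% of all genes tested), 0 higher and a median log2 fold change of -0.67. NID2, a nidogen that links laminin to collagen IV, had 19.9 and 25.6 CPM in control and 6.19 and 9.84 CPM in USP12 cells. SDC4, a syndecan of focal adhesions, had 69.7 and 48.8 CPM against 25.8 and 22.2 CPM. COL17A1, the hemidesmosome collagen, had 5.90 and 3.82 CPM against 1.08 and 1.59 CPM. Their log2 fold changes were -1.50 (SE 0.49), -1.30 (SE 0.41) and -1.85 (SE 0.64). Each was at least 1 in size against either control library alone, but NID2, SDC4 and COL17A1 all lost the call with either USP12 library left out. The 1 gene of the list then called lower was another one each time, DAG1 without USP12 replicate 1 and NID1 without USP12 replicate 2, both named after their values were seen. DAG1, the dystroglycan gene, had 578 and 1123 counts in control and 3085 and 138 counts in USP12 cells, and its log2 fold change was -2.46 without USP12 replicate 1 and 2.06, called higher, without USP12 replicate 2.

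Of 35 listed names of integrin ligands other than laminins and collagens, 25 were tested, with 2 called lower (8.0%, beside 4.41% of all genes tested), 3 higher (12.0%, beside 2.92%) and a median log2 fold change of -0.17. ICAM1, the ligand of the ITGB2 integrins, had 228 and 48.3 CPM in control and 5.83 and 6.65 CPM in USP12 cells, a log2 fold change of -4.46 (SE 0.82, with a raw p of 0.00146 and an adjusted p of 0.21 by edgeR quasi-likelihood) that was -2.95 against control replicate 2 alone. VTN, which encodes vitronectin, the ligand of αvβ3 and αvβ5, had 35.1 and 9.14 CPM against 2.52 and 2.84 CPM (log2 fold change -3.04, SE 0.75, and -1.77 against control replicate 2 alone). Higher were TGFBI, a secreted matrix protein bound by several integrins, with 518 and 286 CPM against 1088 and 1147 CPM (1.47, SE 0.39), and CYR61, a matricellular ligand of αv integrins, with 29.3 and 23.4 CPM against 63.7 and 52.7 CPM (1.14, SE 0.40). EDIL3, an RGD protein that binds αv integrins, had 0 counts in either control library against 109 and 141 counts in USP12 cells, at least 44.8-fold higher when set against a floor of 3 counts per library. The fitted fold change of EDIL3 depends on the prior count and is no bound. With either USP12 library left out, 1 ligand gene was called higher in place of 3. Ligands of αv were among the genes called in both directions, while ITGAV itself was not called.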

How the data were processed

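Messenger RNA was sequenced from 2 control and 2 USP12-overexpressed A549 libraries. The study's methods name Shanghai Biotechnology Corp for the RNA-seq work and a stranded mRNA kit for these libraries. Adaptors and ribosomal reads were removed by Seqtk, and reads were aligned to GRCh38 by Hisat2 2.0.4. Stringtie 1.3.0 counted each gene's uniquely mapped fragments. The deposited values are these raw counts. Which annotation release was used, and whether strand was, is not given in the sources used here, so overlapping genes are uncertain. Totals were 14280081 to 16305356 counts per library.

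Counts were fitted across 15222 genes in R 4.3.3 with edgeR 4.0.16 (filterByExpr, TMM, quasi-likelihood test on group, Benjamini-Hochberg adjustment). Approximate standard errors were obtained as log2 fold change over √F. CPM use TMM-scaled library sizes. Lengths and positions are from GENCODE 44, which held 99.2% of tested genes, and promoters from RefSeq. Genes named were those meeting a call rule, those not overlapping with a log2 fold change of 1 or more, the most abundant per length and their subunit partners, and list genes meeting a call rule. The members and lists were chosen with earlier results of these data known. Alternatives were DESeq2 1.42.0 size factors and Wald test, the exact test, 2 other filters, a replicate block and leaving out each library. Values of 1 member and 1 marker gene are not reported here, though counts over the whole lists include them.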

Additional observations from a re-analysis of the deposited data

How the results depend on the processing

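The log2 fold changes of the 5 called genes kept their direction under each alternative that gave one. LAMA4 and ITGB6 were not tested with at least 10 counts in every library. ITGB8, not called in the main fit, met the criterion of p and fold change as lower under that filter. With no filter, ITGB8 and ITGAM both met it as lower. No member reversed under another scaling, filter or test, or with the replicate number as a block. At an adjusted p under 0.05, where edgeR's quasi-likelihood test called 0 lower and 0 higher genes (1155 at an unadjusted p under 0.05), the counts lower and higher came to 361 and 167 with all genes kept (no filter), to 273 and 133 by DESeq2's Wald test, and to 262 and 167 by edgeR's exact test. Members called lower at that threshold numbered 2 with no filter, 2 by DESeq2's Wald test and 1 by the exact test. By the criterion of p and fold change, no filter gave 1173 lower and 688 higher genes in place of 671 and 445, and 4 members lower in place of 2. It also gave 3 adaptor genes higher, and 6 laminin partners lower and 2 higher. The DESeq2 Wald test gave 2 adaptor genes lower and 1 higher. With at least 10 counts in every library, ITGAX, ITGB3, ITGB6 and LAMA2 were not tested. The members above both control libraries were therefore ITGA10, ITGA11 and LAMA3 only. In the other cases the cause was not tested.

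The deviations of same-numbered libraries from the mean of their group had a correlation of 0.152 across genes, and the labels give no pairing beyond the number. Fitting the replicate number as a block made 251 genes lower and 153 higher at that threshold, 2 members (LAMA4 and LAMB3) being among the lower ones. By the criterion the block gave 5 members, 3 adaptor genes and 6 ligand genes higher, beside 575 genes higher and 717 lower in all. The prior degrees of freedom were infinite in that fit and without a filter, against 4.15, so each gene was given the variance of the trend.

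When a library was left out, a group was left with 1 sample, which is assumed to vary like the other group. At an adjusted p under 0.05 the counts then ran from 28 to 2612 lower and from 12 to 2550 higher genes, and from 0 to 12 lower and 0 to 4 higher members. By the criterion they ran from 300 to 2134 lower and 159 to 2495 higher genes, from 0 to 11 lower and 0 to 6 higher members, from 0 to 3 lower and 0 to 5 higher adaptor genes, from 1 to 7 lower and 0 to 1 higher laminin partners, and from 2 to 4 lower and 1 to 8 higher ligand genes. The highest counts over all genes came without control replicate 2. The log2 fold change changed sign in 12 of the members reported here, with ranges of -0.27 to 2.61 for ITGA1, -1.87 to 1.19 for ITGA2B, -1.04 to 0.28 for ITGA3, -0.01 to 6.78 for ITGA4, -1.43 to 0.62 for ITGA5, -0.08 to 0.45 for ITGAE, -0.71 to 0.02 for ITGB1, -1.04 to 0.46 for ITGB4, -0.27 to 0.09 for LAMB1, -0.56 to 0.14 for LAMB2, -0.14 to 0.06 for LAMC1 and -2.0 to 0.55 for LAMC3. The upper value of ITGA4 is against 0 counts and depends on the prior count. Depth limits the low genes: LAMA4, ITGB6, LAMA2, ITGB3 and ITGA4 rest on 5 or fewer counts in at least 1 library.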

Other observations

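ITGAM and ITGAX are 22.2 kb apart on chromosome 16, and their log2 fold changes were -1.79 and 1.50. ITGAX was lower in control replicate 2 than in the other libraries, while ITGAM was higher in control replicate 1, so the 2 genes also differed in which control library stood apart. ITGA1 and ITGA2, 30.1 kb apart on chromosome 5, had log2 fold changes of 0.53 and -0.28. LAMB4, 20.3 kb from LAMB1 on chromosome 7, had at most 4 counts in a library in which LAMB1 had 7795. None of these genes was called, and the differences between neighbours were not tested.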
